A study of Mus musculus with 12 samples.

Results

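Coagulation and fibrinolysis genes were examined in the livers of 12 mice, as a list of 38 genes named for their role in clotting, in the control of clotting or in the breakdown of clots. Each gene was looked up by its symbol in the deposited table of 11289 genes, and 36 of the 38 were found. Plau and Plat, the urokinase and tissue plasminogen activators, have no row under these names and are not analysed here. The mice were C57BL/6J, given by the labels as 8 to 10 weeks old, in 3 groups of 4 called control, Con A + PBS and, with cells, Con A + hWJ-MSCs. Concanavalin A (Con A), a lectin of jack beans that drives T cells to injure the liver, was injected at 15 mg/kg into the tail vein of both treated groups. After 30 min these mice received either PBS alone or, by the labels, 2000000 hWJ-MSCs in 200 μL PBS, which are mesenchymal stromal cells grown from human umbilical cord tissue. Age and cell number are given differently in the study's methods, and the labels do not say what, if anything, was injected into the control mice. The cells were human and the reads were aligned to the mouse genome, so the liver RNA is that of the mouse as far as the alignment could tell the species apart. Liver was taken at 24 h and sequenced as 150-bp paired-end reads from a library kit that does not mark strand.

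Clotting proceeds through serine proteases that activate each other in turn. The contact and intrinsic pathway starts on surfaces, the tissue factor pathway starts where tissue factor meets factor VII, and both end in thrombin, which cuts fibrinogen to fibrin. Antithrombin, the protein C system and tissue factor pathway inhibitor hold this in check, and plasmin dissolves the clot. The liver is where most of the plasma clotting factors are made, chiefly by hepatocytes, while factor VIII and von Willebrand factor come mainly from endothelial cells.

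The measured quantity is a normalized expression value, a whole number for each gene in each mouse. These values had been brought to a common distribution across mice before they were deposited, with totals of 17649654 to 17657159 and a median value of 352 in all 12 mice, so sequencing depth cannot be read from the table and is unknown. Every gene in the table reaches 64 in at least 2 mice. A member could meet that through the group in which it is high: F13a1, Procr, Plaur, Thbd and Thbs1 reach 64 in no control mouse, and F8 in no Con A + PBS mouse. Thbs1 and F3 reach it in no Con A + hWJ-MSCs mouse, so Thbs1 meets it only through the Con A + PBS mice. At the top, values fall on shared steps that end at 341028, and 8 members reach 20000 or more in at least 1 mouse, where small changes cannot be seen. On the first principal component of all genes, with 64.8% of the variance, scores ran from -79.6 to -66.9 in the controls, from 37.5 to 63.8 after Con A + PBS and from -0.88 to 33.2 after Con A + hWJ-MSCs. Con A + PBS replicate 4 stood apart most often: it was the lowest of its group in 18 and the highest in 7 of the 36 members, and in 36.1% and 39.8% of all genes.

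Con A moved the clotting genes in both directions at once. The 13 members that fell were Klkb1, F8, F7, F10, F5, F2, F13b, Proc, Proz, Hrg, Vwf, Ggcx and Vkorc1. The 11 that rose were F11, Fgb, Fgl1, F13a1, Procr, Thbd, Plaur, Anxa2, Cpb2, Thbs1 and Mcfd2. By limma, with the adjusted p under 0.05 and the fold change over 1.5, 11 members rose and 13 fell between the control and Con A + PBS groups, which is 66.7% of the members. Of all genes tested, 19.5% rose, 19.2% fell and 38.8% were called in either direction. The median log2 fold change was -0.05 over the members and 0.05 over all genes. In bulk tissue, fewer cells of a type and less RNA per cell cannot be told apart, and this holds for each value given here.

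With hWJ-MSCs, 7 members were higher and 5 lower than in the Con A + PBS group, 33.3% of the members, where 4.2% of all genes rose, 4.38% fell and 8.58% were called in either direction. Klkb1, F9, F10, F13b, Proc, Hrg and Vkorc1 were higher. F3, Thbd, Plaur, Anxa2 and Thbs1 were lower. Of these, Thbs1 reaches 64 only in Con A + PBS mice, so its difference is partly selected by the floor of 64 in at least 2 mice. The 12 calls depended on single mice. Without Con A + PBS replicate 1, or without Con A + hWJ-MSCs replicate 3, 0 of the 12 calls remained, and over all genes 5 rose and 2 fell in the first case and 4 rose and 3 fell in the second, against 474 and 495 with all mice. Without Con A + hWJ-MSCs replicate 2 only Thbd was still called, with 8 genes up and 10 down over the table. Without Con A + PBS replicate 4, 1 member rose and 2 fell (Vkorc1, Thbd and Anxa2), and without Con A + hWJ-MSCs replicate 1, 2 rose and 4 fell. Leaving out Con A + PBS replicate 3 gave 4 in each direction. The sign of all 12 differences was the same in every one of these fits, so it was the side of the threshold that moved and not the direction. The comparison of the Con A + PBS group with the control group uses the same 4 Con A + PBS mice, so the values of the comparisons are set side by side and not as independent evidence.

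**Figure D1:**
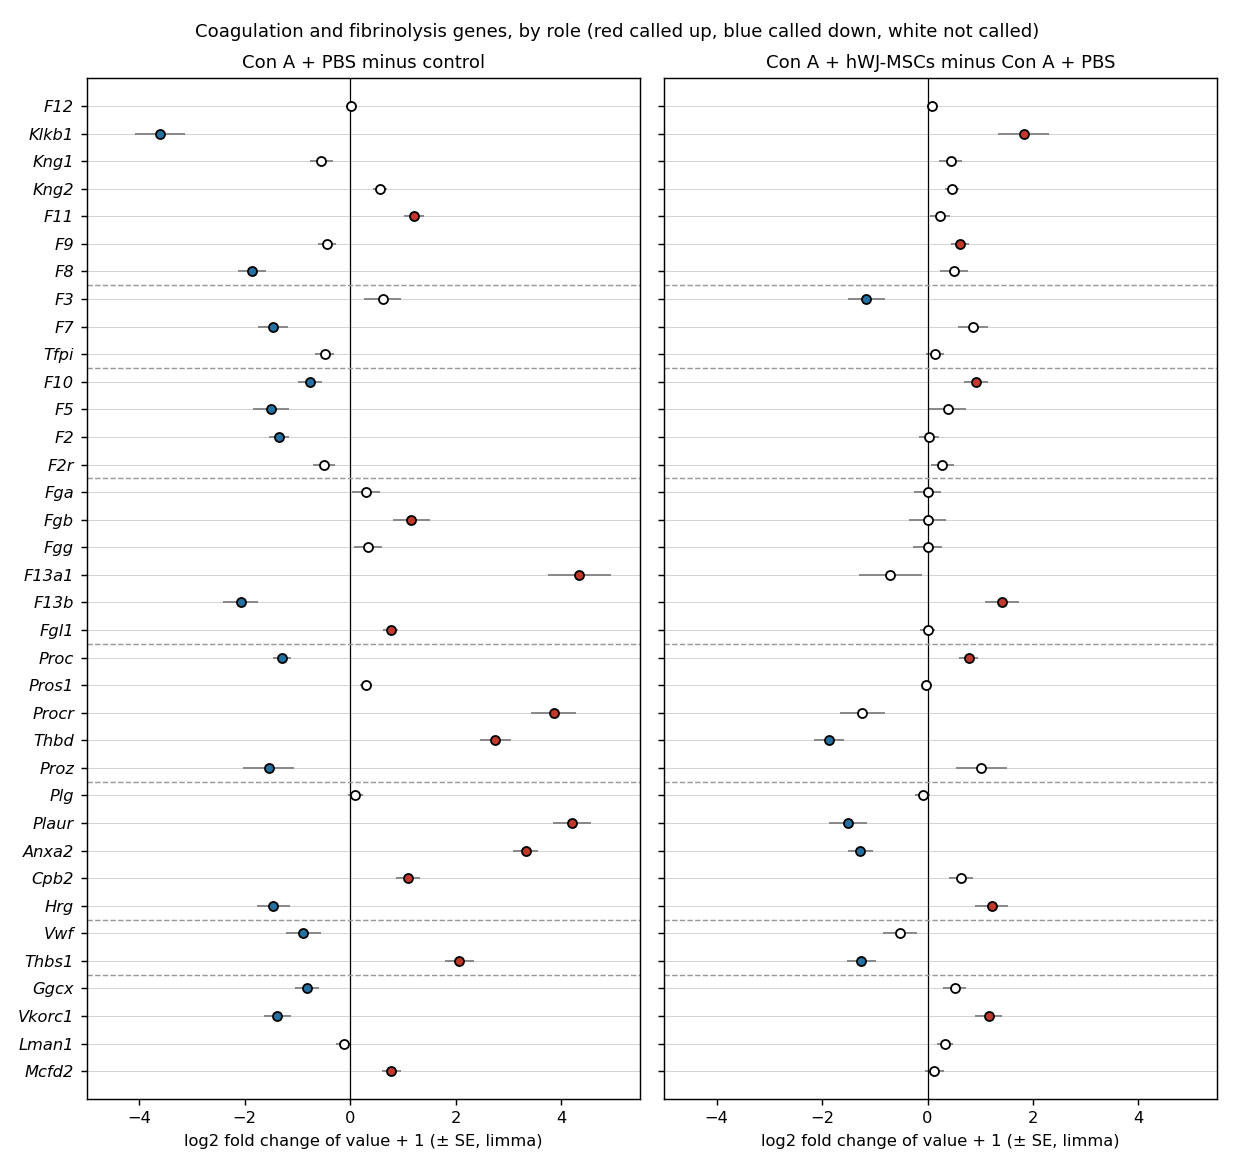
Log2 fold change of each of the 36 clotting genes, with its standard error from limma, for Con A + PBS minus control (left) and Con A + hWJ-MSCs minus Con A + PBS (right), grouped by role between dashed lines. The x axis is the log2 fold change of the normalized value plus 1, red marks the 11 (left) and 7 (right) genes called higher, blue the 13 and 5 called lower and white the rest, and Klkb1 at -3.60 and F13a1 at 4.34 are the extremes of the left panel.

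In the contact and intrinsic pathway, 1 of 7 members rose after Con A (F11), 2 fell (Klkb1 and F8) and 4 were not called. Klkb1 encodes plasma prekallikrein, the protease that activates factor XII and frees bradykinin from kininogen. Klkb1 had values of 2828, 3272, 3364 and 3921 in the control mice, 242, 678, 306 and 110 in the Con A + PBS mice and 881, 1978, 1000 and 500 in the Con A + hWJ-MSCs mice. All control mice lay above all treated mice, and the 2 treated groups overlapped, since the lowest mouse with cells was below the highest with PBS. Klkb1 fell 12.1-fold after Con A, the largest decrease among the members (log2 fold change -3.60 ± 0.48 SE, limma adjusted p = 5.78e-05). It was 3.53-fold higher with hWJ-MSCs than with PBS (limma adjusted p = 0.0334), a call lost in 6 of the 12 fits that left out 1 mouse, with adjusted p up to 0.0992, and in a fit of only the 8 mice compared (0.0672). Against the control mice it was still 3.44-fold lower with hWJ-MSCs (limma adjusted p = 0.0103). A second annotated Klkb1 entry covers 82.4% of its exon bases, and reads could be split between the entries.

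F11 encodes factor XI, the protease most like prekallikrein in the contact pathway, and lies next to Klkb1 on the same strand. In the authors' table (mm10) F11 spans chr8:45241170-45262031 and Klkb1 chr8:45269442-45294859, both on the minus strand, with 7410 bases and no other protein-coding gene between them. F11 averaged 1237 ± 290.3 (SD, n = 4) in the control group, 2859 ± 534 with PBS and 3345 ± 418 with hWJ-MSCs. The highest control mouse, at 1607, was below the lowest treated mouse, at 2059. F11 rose 2.32-fold after Con A (log2 fold change 1.22 ± 0.19 SE, limma adjusted p = 0.000162), opposite to its neighbour, and differed by 0.24 on the log2 scale between the treated groups (limma adjusted p = 0.377). The listed transcripts of F11 and Klkb1 share no stretch of 31 bases, so reads are not exchanged between them at that length.

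The promoters of both genes are shown because the genes lie side by side and moved in opposite directions. The windows come from RefSeq on GRCm38.p6, 250 bases before to 50 bases after the RefSeq start, 5′ to 3′ on the strand of the gene, and the RefSeq start was 24 bases from the listed start for Klkb1 and 0 bases for F11. Capitals mark matches, on either strand, to the C/EBP pattern TTNNGNAA, the type II interleukin-6 element CTGGGA or the AP-1 pattern TGANTCA. The Klkb1 window is chr8:45294786-45295085 and the F11 window is chr8:45261982-45262281.
Klkb1: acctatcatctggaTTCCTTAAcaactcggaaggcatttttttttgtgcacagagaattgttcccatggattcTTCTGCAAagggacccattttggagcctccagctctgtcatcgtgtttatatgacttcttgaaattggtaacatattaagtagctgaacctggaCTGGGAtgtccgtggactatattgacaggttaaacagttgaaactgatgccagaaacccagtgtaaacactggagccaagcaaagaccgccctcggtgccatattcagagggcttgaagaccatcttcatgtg
F11: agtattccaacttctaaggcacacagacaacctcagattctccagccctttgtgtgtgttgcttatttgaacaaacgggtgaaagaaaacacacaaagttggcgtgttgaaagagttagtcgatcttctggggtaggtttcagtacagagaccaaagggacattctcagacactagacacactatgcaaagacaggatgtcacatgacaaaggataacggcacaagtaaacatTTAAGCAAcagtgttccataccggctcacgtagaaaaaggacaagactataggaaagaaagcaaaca
The Klkb1 window held 2 C/EBP matches and 1 interleukin-6 element, and the F11 window held 1 C/EBP match. A match is a description of letters and not a bound site, and these patterns are common: TTNNGNAA occurred in 31.7% and CTGGGA in 32.5% of 8492 promoters of genes in the table.

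F12, which encodes factor XII, the first protease of the contact pathway, averaged 6332 ± 513 (SD, n = 4) in the control group, 6427 ± 410 with PBS and 6858 ± 348 with hWJ-MSCs, with a log2 fold change of 0.02 after Con A (limma adjusted p = 0.862). Kng1 and Kng2 encode kininogens, the cofactors and kinin precursors of that pathway. Kng2 averaged 6671 ± 457, 9885 ± 544 and 13857 ± 2723 in the same order, and no mouse of a group overlapped with the next. It was 1.48-fold higher after Con A, just under the fold threshold (limma adjusted p = 0.00357), and 2.05-fold higher with hWJ-MSCs than in the control mice (limma adjusted p = 0.000106). Kng1 ranged from 34256 to 57938 in the control mice, 25747 to 29590 with PBS and 25747 to 44292 with hWJ-MSCs, on a part of the scale with few steps, and was called in no comparison. Their transcripts share 31-base stretches, 15.9% of those of Kng1 and 22.9% of those of Kng2, and this was the only pair of members among 630 to share any, so their values are uncertain where reads could go to either.

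F9 encodes factor IX, the vitamin K-dependent protease that works with factor VIII. F9 had values of 5751, 4662, 5574 and 4936 in the control mice, 3921, 4840, 4289 and 2660 in the Con A + PBS mice and 5923, 6762, 5574 and 5255 in the Con A + hWJ-MSCs mice. Every mouse with hWJ-MSCs was above every mouse with PBS, and the control group overlapped with both. F9 was 1.36-fold lower after Con A, under the fold threshold (limma adjusted p = 0.0408), and 1.53-fold higher with hWJ-MSCs than with PBS (limma adjusted p = 0.0387), which is close to both thresholds and was lost in 7 of 12 fits without 1 mouse and in the 8 mice alone (0.0617). F8, the cofactor factor VIII, had values of 166, 176, 100 and 172 in the control mice, 37, 46, 46 and 34 in the Con A + PBS mice and 36, 88, 62 and 56 in the Con A + hWJ-MSCs mice. The control mice lay above all 8 treated mice, whose ranges overlapped. F8 fell 3.64-fold after Con A (log2 fold change -1.86 ± 0.27 SE, limma adjusted p = 9.69e-05) and was 2.57-fold lower than control with hWJ-MSCs (limma adjusted p = 0.00163). The 12 endothelial markers summed to 5015 to 6775 in the control mice, 2348 to 3278 with PBS and 2725 to 3759 with hWJ-MSCs, with 7 of the 12 lower and 1 higher after Con A. Their part in the F8 result was not tested.

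In the tissue factor pathway, F7 fell after Con A and F3 and Tfpi were not called. F3 encodes tissue factor, the receptor that starts clotting. F3 had values of 66, 42, 65 and 58 in the control mice, 84, 53, 66 and 200 in the Con A + PBS mice and 32, 50, 43 and 32 in the Con A + hWJ-MSCs mice. The value of 200 belonged to Con A + PBS replicate 4, and the highest mouse with hWJ-MSCs was just below the lowest with PBS. F3 was 2.24-fold lower with hWJ-MSCs than with PBS (log2 fold change -1.17 ± 0.35 SE, limma adjusted p = 0.0478). This call was lost in 10 of 12 fits without 1 mouse, and also without the trend (0.0508), in a fit of only the 8 mice compared (0.0775) and when replicate numbers entered as a block (0.0518), each value being an adjusted p. Without Con A + PBS replicate 4 the difference between the treated groups was -0.77 on the log2 scale. After Con A alone the log2 fold change was 0.62 ± 0.35 SE (limma adjusted p = 0.153), and it ran from 0.22 to 0.85 in the fits without 1 mouse.

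F7 encodes factor VII, which binds tissue factor. F7 had values of 1958, 1903, 2337 and 1958 in the control mice, 820, 1128, 914 and 343 in the Con A + PBS mice and 1188, 1654, 1450 and 1122 in the Con A + hWJ-MSCs mice. The control mice were above every treated mouse, and the mice with hWJ-MSCs overlapped with those given PBS only at 1122 against 1128. F7 fell 2.77-fold after Con A (log2 fold change -1.47 ± 0.29 SE, limma adjusted p = 0.00102). Its 1.82-fold higher level with hWJ-MSCs than with PBS did not pass (limma adjusted p = 0.0615), though it passed with the replicate block (0.0342) and without Con A + PBS replicate 2 (0.0264). In the 12 fits without 1 mouse this difference ran from 0.50 to 1.07 on the log2 scale, with limma adjusted p up to 0.157. Tfpi, the inhibitor of this pathway, averaged 119 ± 24.1 (SD, n = 4) in the control group, 84.5 ± 13.4 with PBS and 93.8 ± 14.2 with hWJ-MSCs, and its 1.40-fold lower level after Con A stayed under the fold threshold (limma adjusted p = 0.0293).

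In the common pathway, F10, F5 and F2 all fell after Con A and the thrombin receptor F2r was not called. Between the treated groups F10 was higher with hWJ-MSCs, and F2 and F5 were not called. F10 encodes factor X, on which both pathways meet. F10 had values of 9400, 12210, 10346 and 9400 in the control mice, 6748, 7945, 6528 and 3859 in the Con A + PBS mice and 10346, 13212, 15086 and 8527 in the Con A + hWJ-MSCs mice. All mice with PBS were below all other mice, and the control and hWJ-MSCs groups overlapped. F10 fell 1.70-fold after Con A (limma adjusted p = 0.0127), which became -0.54 on the log2 scale, under the fold threshold, without Con A + PBS replicate 4. It was 1.90-fold higher with hWJ-MSCs than with PBS (limma adjusted p = 0.0287, lost in 5 of 12 fits without 1 mouse and, at 0.0506, in the 8 mice alone).

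F2 encodes prothrombin, the precursor of thrombin. F2 had values of 29712, 44696, 58210 and 44696 in the control mice, 17674, 17674, 15125 and 17674 in the Con A + PBS mice and 13961, 18948, 17674 and 18948 in the Con A + hWJ-MSCs mice. Both treated groups lay below all control mice and overlapped with each other. F2 fell 2.54-fold after Con A (log2 fold change -1.34 ± 0.19 SE, limma adjusted p = 9.04e-05) and was 2.5-fold lower than control with hWJ-MSCs (limma adjusted p = 0.000205). Between the treated groups the log2 fold change was 0.02 ± 0.19 SE (limma adjusted p = 0.949).

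F5 encodes factor V, the cofactor of factor X. F5 had values of 6040, 16342, 10356 and 13230 in the control mice, 3976, 5393, 5040 and 1907 in the Con A + PBS mice and 5040, 6321, 3976 and 4658 in the Con A + hWJ-MSCs mice. The lowest control mouse was above every mouse with PBS and below the highest with hWJ-MSCs. F5 fell 2.85-fold after Con A (limma adjusted p = 0.00264) and was 2.19-fold lower than control with hWJ-MSCs (limma adjusted p = 0.0198), the latter lost without control replicate 2 (0.0628), control replicate 4 (0.0556) or Con A + hWJ-MSCs replicate 3 (0.0582). F2r, a thrombin receptor, averaged 204 ± 33.6 (SD, n = 4), 145 ± 29.3 and 181 ± 58.7 in the control, PBS and hWJ-MSCs groups, and its log2 fold change after Con A was -0.49 (limma adjusted p = 0.0653).

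Among the genes of fibrin formation, F13a1, Fgb and Fgl1 rose after Con A and F13b fell. Fga, Fgb and Fgg encode the 3 chains of fibrinogen, which lie in a cluster on chromosome 3, Fgg and Fga 11099 bases apart and Fga and Fgb 8631 bases apart. Fgb had values of 72775, 147932, 341028 and 147932 in the control mice and 341028 in all 8 treated mice. Control replicate 3 thus stood at the top of the scale with the treated mice and the others below it. The fitted difference was 1.16 ± 0.35 SE on the log2 scale (limma adjusted p = 0.0132), and it is limited by the largest value in the table. Fga had 147432 in control replicate 1 and 341028 in the other 11 mice. Fgg had 57938 in control replicate 1 and 147432 in the other 11 mice. Neither Fga (limma adjusted p = 0.339) nor Fgg (limma adjusted p = 0.302) was called. A rise of Fga above 341028 would not show on this scale. Fgl1, a secreted liver protein related to fibrinogen, ranged from 20910 to 29706 in the control mice and was 44676 in each treated mouse (limma adjusted p = 0.000474). For Fgb and Fgl1 all treated mice share a single step, so these p-values do not measure the spread between treated mice.

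The subunits of factor XIII, which cross-links fibrin, moved in opposite directions. F13a1 encodes the catalytic subunit, known from platelets and macrophages. F13a1 had values of 4, 4, 8 and 0 in the control mice, 89, 56, 80 and 91 in the Con A + PBS mice and 74, 25, 43 and 62 in the Con A + hWJ-MSCs mice. All control mice were below all treated mice, and the treated groups overlapped. The log2 fold change after Con A was 4.34 ± 0.60 SE (limma adjusted p = 7.64e-05), on values that are low in the control group, where the size of the fold depends on the 1 added to each value. Between the treated groups it was -0.71 ± 0.60 SE (limma adjusted p = 0.423). The 11 macrophage and monocyte markers in the table summed to 4341 to 6799 in the control mice, 6221 to 7493 with PBS and 3092 to 4890 with hWJ-MSCs, with 5 higher and 6 lower after Con A, and the 7 platelet markers looked up have no row. The part of these cells in the F13a1 result was not tested.

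F13b encodes the carrier subunit, made by the liver. F13b had values of 3982, 5256, 5047 and 5925 in the control mice, 1004, 2318, 1291 and 650 in the Con A + PBS mice and 3322, 4386, 3232 and 2106 in the Con A + hWJ-MSCs mice. The control mice lay above all mice with PBS, and the hWJ-MSCs mice overlapped with both groups. F13b fell 4.23-fold after Con A (log2 fold change -2.08 ± 0.33 SE, limma adjusted p = 0.000193) and was 2.67-fold higher with hWJ-MSCs than with PBS (limma adjusted p = 0.0255, lost in 5 of 12 fits without 1 mouse). Against control the hWJ-MSCs group gave a log2 fold change of -0.66 (limma adjusted p = 0.121), which passed in the 8 mice alone (0.0307).

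In the protein C and Z systems, Proc and Proz fell after Con A, Procr and Thbd rose and Pros1 was not called. Proc encodes protein C, which once activated cleaves factors V and VIII. Proc had values of 9344, 6494, 7571 and 6134 in the control mice, 2846, 3624, 2993 and 2513 in the Con A + PBS mice and 5357, 6287, 5225 and 3844 in the Con A + hWJ-MSCs mice. The PBS mice were below all other mice, and the highest mouse with hWJ-MSCs reached into the control range. Proc fell 2.45-fold after Con A (log2 fold change -1.30 ± 0.18 SE, limma adjusted p = 7.5e-05) and was 1.72-fold higher with hWJ-MSCs than with PBS (limma adjusted p = 0.0254, lost in 5 of 12 fits without 1 mouse).

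Thbd encodes thrombomodulin, the endothelial receptor on which thrombin activates protein C. Thbd had values of 24, 29, 28 and 43 in the control mice, 248, 164, 180 and 266 in the Con A + PBS mice and 70, 34, 50 and 88 in the Con A + hWJ-MSCs mice. The PBS mice were above all other mice, and the hWJ-MSCs group overlapped with the control group in its lowest mouse. From control values all under 64, Thbd rose 6.75-fold after Con A (log2 fold change 2.76 ± 0.29 SE, limma adjusted p = 1.06e-05). With hWJ-MSCs it was 3.64-fold lower than with PBS (log2 fold change -1.87 ± 0.29 SE, limma adjusted p = 0.0149), lost without Con A + PBS replicate 1 (0.0696) or Con A + hWJ-MSCs replicate 3 (0.0547), the fewest losses among the 12 calls. Its 1.85-fold higher level than in the control mice (limma adjusted p = 0.0265) was lost in 5 of 12 such fits, with adjusted p up to 0.079, after quantile normalization (0.056) and in the 8 mice alone (0.0529).

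Procr encodes the endothelial protein C receptor, which holds protein C for activation. Procr had values of 3, 8, 12 and 4 in the control mice, 130, 98, 80 and 98 in the Con A + PBS mice and 72, 27, 52 and 30 in the Con A + hWJ-MSCs mice. The 3 groups did not overlap, with PBS highest and control lowest. Procr rose after Con A by 3.86 ± 0.42 SE on the log2 scale (limma adjusted p = 1.49e-05), from values where the added 1 matters. With hWJ-MSCs the difference from PBS was -1.24 ± 0.42 SE and did not pass (limma adjusted p = 0.0654), though it passed with a pseudocount of 10 (0.0324), after quantile normalization (0.0393) and in the 8 mice alone (0.0453). The endothelial markers, whose sums are given with F8, had 7 of 12 lower, 1 higher and 4 not called after Con A, and their part in the Thbd and Procr results was not tested.

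Proz encodes protein Z, a cofactor in the inhibition of factor X. Proz had values of 2763, 3406, 4044 and 3547 in the control mice, 1530, 2224, 1845 and 296 in the Con A + PBS mice and 2204, 3130, 2148 and 2107 in the Con A + hWJ-MSCs mice. The value of 296 in Con A + PBS replicate 4 was far below the rest of its group. Proz fell 2.92-fold after Con A (log2 fold change -1.54 ± 0.48 SE, limma adjusted p = 0.0162), with -0.89 on the log2 scale and still called without that mouse. Its difference between the treated groups was 1.02 ± 0.48 SE on the log2 scale (limma adjusted p = 0.155), or 0.36 without the same mouse. Pros1, the cofactor protein S, averaged 1220 ± 82.9 (SD, n = 4), 1504 ± 120 and 1479 ± 172 in the 3 groups and was under the fold threshold throughout.

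Of the 5 fibrinolysis genes in the table, Plaur, Anxa2 and Cpb2 rose after Con A, Hrg fell and Plg was not called. Plaur encodes the urokinase receptor, which gathers plasminogen activation at the surface of leukocytes and other cells. Plaur had values of 8, 11, 8 and 4 in the control mice, 168, 131, 115 and 220 in the Con A + PBS mice and 60, 28, 75 and 65 in the Con A + hWJ-MSCs mice. The groups did not overlap, with the mice given hWJ-MSCs in the middle. Plaur rose after Con A by 4.21 ± 0.36 SE on the log2 scale (limma adjusted p = 2.3e-06) and was 2.83-fold lower with hWJ-MSCs than with PBS (limma adjusted p = 0.027, lost in 4 of 12 fits without 1 mouse). The 7 neutrophil markers in the table summed to 70 to 163 in the control mice, 994 to 1996 with PBS and 845 to 1813 with hWJ-MSCs, and all 7 rose after Con A while 0 of the 7 were called between the treated groups. The macrophage and monocyte markers summed to 6221 to 7493 with PBS and 3092 to 4890 with hWJ-MSCs. Between these groups 1 of the 11 was called lower and 10 were not called. The part of these cells in the Plaur result was not tested.

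Anxa2 encodes annexin A2, a surface protein that binds plasminogen and its activator. Anxa2 had values of 270, 220, 164 and 231 in the control mice, 2550, 2101, 1682 and 2609 in the Con A + PBS mice and 1451, 702, 959 and 694 in the Con A + hWJ-MSCs mice. Again the groups did not overlap and the mice with hWJ-MSCs were in between. Anxa2 rose 10.1-fold after Con A (log2 fold change 3.33 ± 0.24 SE, limma adjusted p = 6.18e-07), was 2.43-fold lower with hWJ-MSCs than with PBS (limma adjusted p = 0.0188, lost in 3 of 12 fits without 1 mouse) and stayed 4.15-fold above control (limma adjusted p = 4.38e-05).

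**Figure D2:**
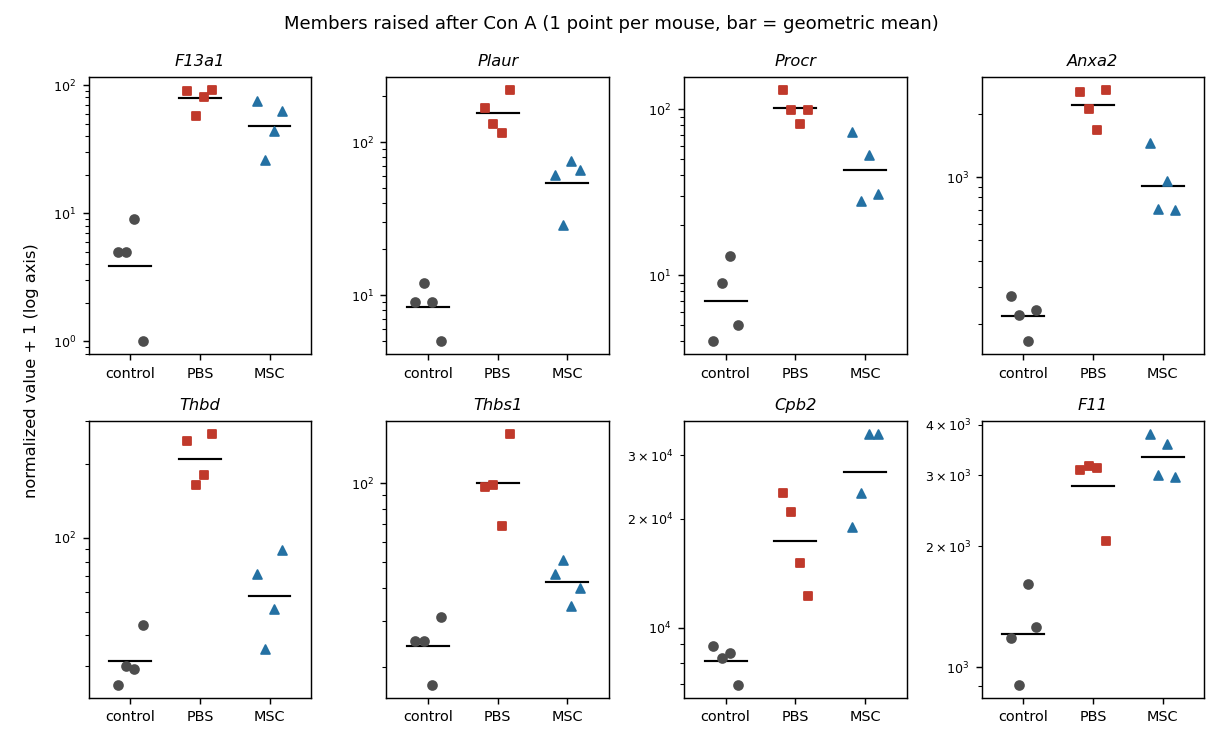
Normalized value plus 1 in each mouse, on a log axis, for 8 clotting genes that rose after Con A, with control as circles, Con A + PBS (PBS) as squares, Con A + hWJ-MSCs (MSC) as triangles and the geometric mean as a bar. In Plaur, Procr, Anxa2, Thbs1 and Thbd all PBS mice lie above all MSC mice, whereas in F13a1, Cpb2 and F11 these groups overlap.

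The promoters of Procr, Plaur and Anxa2 are shown because these genes rose together and each window holds an AP-1 pattern. They lie at chr2:155750967-155751266, chr7:24462233-24462532 and chr9:69453433-69453732, all on the plus strand of GRCm38.p6, in the same windows of 250 bases before to 50 bases after the RefSeq start, with capitals as for Klkb1 and F11.
Procr: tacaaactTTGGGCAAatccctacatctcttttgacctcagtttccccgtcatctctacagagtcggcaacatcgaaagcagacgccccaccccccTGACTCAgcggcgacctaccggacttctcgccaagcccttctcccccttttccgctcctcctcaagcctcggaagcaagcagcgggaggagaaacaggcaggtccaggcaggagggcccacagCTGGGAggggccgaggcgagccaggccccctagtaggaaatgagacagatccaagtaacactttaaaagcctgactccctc
Plaur: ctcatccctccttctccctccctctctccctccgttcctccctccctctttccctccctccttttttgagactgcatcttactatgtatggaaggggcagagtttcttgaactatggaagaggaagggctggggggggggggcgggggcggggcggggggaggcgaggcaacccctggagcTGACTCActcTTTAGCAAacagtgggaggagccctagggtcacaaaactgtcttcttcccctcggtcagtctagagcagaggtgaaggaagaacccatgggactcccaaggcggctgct
Anxa2: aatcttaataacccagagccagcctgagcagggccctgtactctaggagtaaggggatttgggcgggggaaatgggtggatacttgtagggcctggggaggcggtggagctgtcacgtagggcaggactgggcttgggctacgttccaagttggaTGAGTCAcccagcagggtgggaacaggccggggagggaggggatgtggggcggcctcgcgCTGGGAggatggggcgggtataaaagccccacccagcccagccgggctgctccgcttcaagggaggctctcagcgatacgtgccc
Counted from the RefSeq start, TGANTCA began at -154 in Procr, at -69 in Plaur and at -95 in Anxa2. That start was 100 bases from the listed start for Procr, 17 for Plaur and 63 for Anxa2. The pattern TGANTCA is common to all 3 windows. It was found on either strand in the promoters of 8 of the 28 members matched to RefSeq and in 5.22% of the 8492 promoters. Of the matched members that rose after Con A, 4 of 8 had it (Fgb, Procr, Plaur and Anxa2), against 2 of the 11 that fell (F2 and Hrg) and 2 of the 9 not called (F3 and F2r). The remaining patterns were the full HNF1 pattern, in 1 of 28 members (F13b) and 0.483% of promoters, its first part GTTAAT, contained in it, in 5 and 4.44%, TTNNGNAA in 16 and 31.7%, the STAT pattern TTCNNNGAA in 4 and 6.97%, CTGGGA in 13 and 32.5%, and the NF-kB pattern in 0 and 1.57%. No match says only that these letters are not in the window.

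Cpb2 encodes a carboxypeptidase of plasma that slows fibrinolysis. It averaged 8156 ± 853 (SD, n = 4) in the control group, 17958 ± 5220 with PBS and 27830 ± 7807 with hWJ-MSCs. Every treated mouse was above every control mouse, and the treated groups overlapped. Of the 8 treated mice, 5 stood on the shared steps above 20000. Cpb2 rose 2.14-fold after Con A (limma adjusted p = 0.00185) and was 3.32-fold above control with hWJ-MSCs (limma adjusted p = 0.000144), with a difference of 0.63 on the log2 scale between the treated groups that did not pass (limma adjusted p = 0.0824). Plg, the precursor of plasmin, was at 34238 in control replicate 1 and Con A + hWJ-MSCs replicate 1 and at 44248 in the other 10 mice, and was called in no comparison. Slc22a3, on the opposite strand, covers 11.3% of the Plg exon bases, and reads there cannot be assigned by strand.

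Hrg encodes histidine-rich glycoprotein, a plasma protein that binds plasminogen and heparin, and lies 24197 bases from Kng2 on chromosome 16 with no other protein-coding gene between. Hrg had values of 11534, 11534, 13142 and 12175 in the control mice, 3683, 7908, 5228 and 2459 in the Con A + PBS mice and 11534, 13142, 11534 and 6291 in the Con A + hWJ-MSCs mice. The control mice lay above all mice with PBS, and 3 of the 4 mice with hWJ-MSCs were within the control range. Hrg fell 2.75-fold after Con A (log2 fold change -1.46 ± 0.31 SE, limma adjusted p = 0.00176) and was 2.33-fold higher with hWJ-MSCs than with PBS (limma adjusted p = 0.0321, lost in 5 of 12 fits without 1 mouse and, at 0.0622, in the 8 mice alone). Its difference from control with hWJ-MSCs was -0.24 ± 0.31 SE on the log2 scale (limma adjusted p = 0.571).

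The promoters of Hrg and its neighbour Kng2 are shown, in windows and capitals as before, because Hrg fell after Con A while Kng2, at 0.57 on the log2 scale, was not called. The Hrg window is chr16:22950822-22951121 on the plus strand and the Kng2 window is chr16:23029052-23029351 on the minus strand of GRCm38.p6. The RefSeq start was 0 bases from the listed start for Hrg and 33 for Kng2.
Hrg: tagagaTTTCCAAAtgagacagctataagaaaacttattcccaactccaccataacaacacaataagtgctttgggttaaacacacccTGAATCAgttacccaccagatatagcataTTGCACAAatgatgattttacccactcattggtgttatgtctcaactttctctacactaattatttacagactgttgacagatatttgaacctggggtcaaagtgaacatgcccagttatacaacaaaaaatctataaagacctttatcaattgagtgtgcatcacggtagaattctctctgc
Kng2: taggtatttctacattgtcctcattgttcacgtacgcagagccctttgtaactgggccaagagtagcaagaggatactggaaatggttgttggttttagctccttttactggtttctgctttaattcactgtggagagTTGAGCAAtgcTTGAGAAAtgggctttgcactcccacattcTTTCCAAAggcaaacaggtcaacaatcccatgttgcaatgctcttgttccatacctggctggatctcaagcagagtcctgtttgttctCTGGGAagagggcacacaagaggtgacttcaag
The Hrg window held 2 C/EBP matches and 1 AP-1 match, and the Kng2 window held 3 C/EBP matches and 1 interleukin-6 element. Kng1 lies 29275 bases beyond Kng2. A further cluster on chromosome 8 holds F7, F10 and Proz, with 1498 bases between F7 and F10 and 4231 between F10 and Proz, and these 3 genes, all on the plus strand, fell after Con A by 2.77-fold, 1.70-fold and 2.92-fold.

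**Figure D3:**
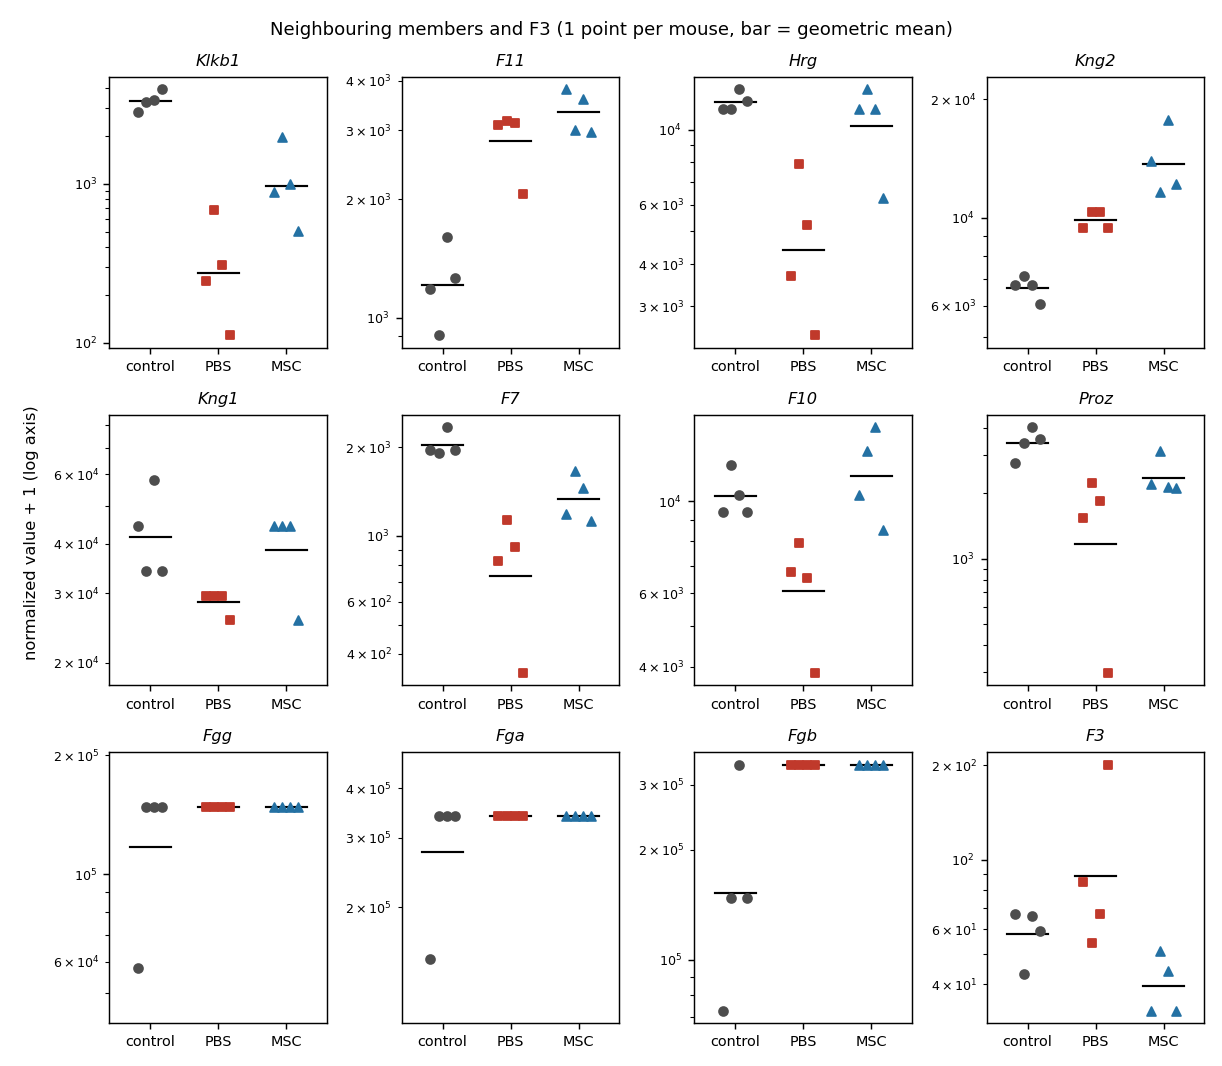
Normalized value plus 1 in each mouse, on log axes of different range, for clotting genes that lie next to each other in the genome (Klkb1 and F11; Hrg, Kng2 and Kng1; F7, F10 and Proz; Fgg, Fga and Fgb) and for F3, with control as circles, Con A + PBS (PBS) as squares, Con A + hWJ-MSCs (MSC) as triangles and the geometric mean as a bar. Klkb1 and F11 go in opposite directions from control to PBS, the fibrinogen chains stand on shared steps up to 341028, and the F3 value of 200 belongs to Con A + PBS replicate 4.

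The genes of vessel wall adhesion also parted. Thbs1 encodes thrombospondin 1, an adhesive protein of platelets and injured vessels. Thbs1 had values of 24, 24, 16 and 30 in the control mice, 96, 98, 68 and 154 in the Con A + PBS mice and 44, 50, 33 and 39 in the Con A + hWJ-MSCs mice. The groups did not overlap, and the mice with hWJ-MSCs were nearer to control. Control and hWJ-MSCs values were all under 64, so Thbs1 passed the floor only through its PBS mice, which bears on both differences from PBS. Thbs1 rose 4.20-fold after Con A (log2 fold change 2.07 ± 0.28 SE, limma adjusted p = 5.93e-05). It was 2.40-fold lower with hWJ-MSCs than with PBS (limma adjusted p = 0.0245, lost in 4 of 12 fits without 1 mouse). Its 1.75-fold higher level than in the control mice (limma adjusted p = 0.032) was lost in 5 of 12 such fits, with adjusted p up to 0.082, and after quantile normalization (0.109).

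Vwf encodes von Willebrand factor, which tethers platelets and carries factor VIII. It averaged 150 ± 29.1 (SD, n = 4) in the control group, 84.8 ± 38.2 with PBS and 58.8 ± 25.8 with hWJ-MSCs, and Con A + PBS replicate 4, at 138, reached into the control range. Its decrease of 1.85-fold after Con A (limma adjusted p = 0.0355) was lost in 6 of 12 fits, those without control replicate 1 (0.0954), 2 (0.0551) or 4 (0.0591) or Con A + PBS replicate 1 (0.0536), 2 (0.0954) or 3 (0.0968). With hWJ-MSCs it was 2.67-fold below control (limma adjusted p = 0.00484) with no such loss. The table lists Vwf beside a transcript of 11 exons and 1807 bases.

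**Figure D4:**
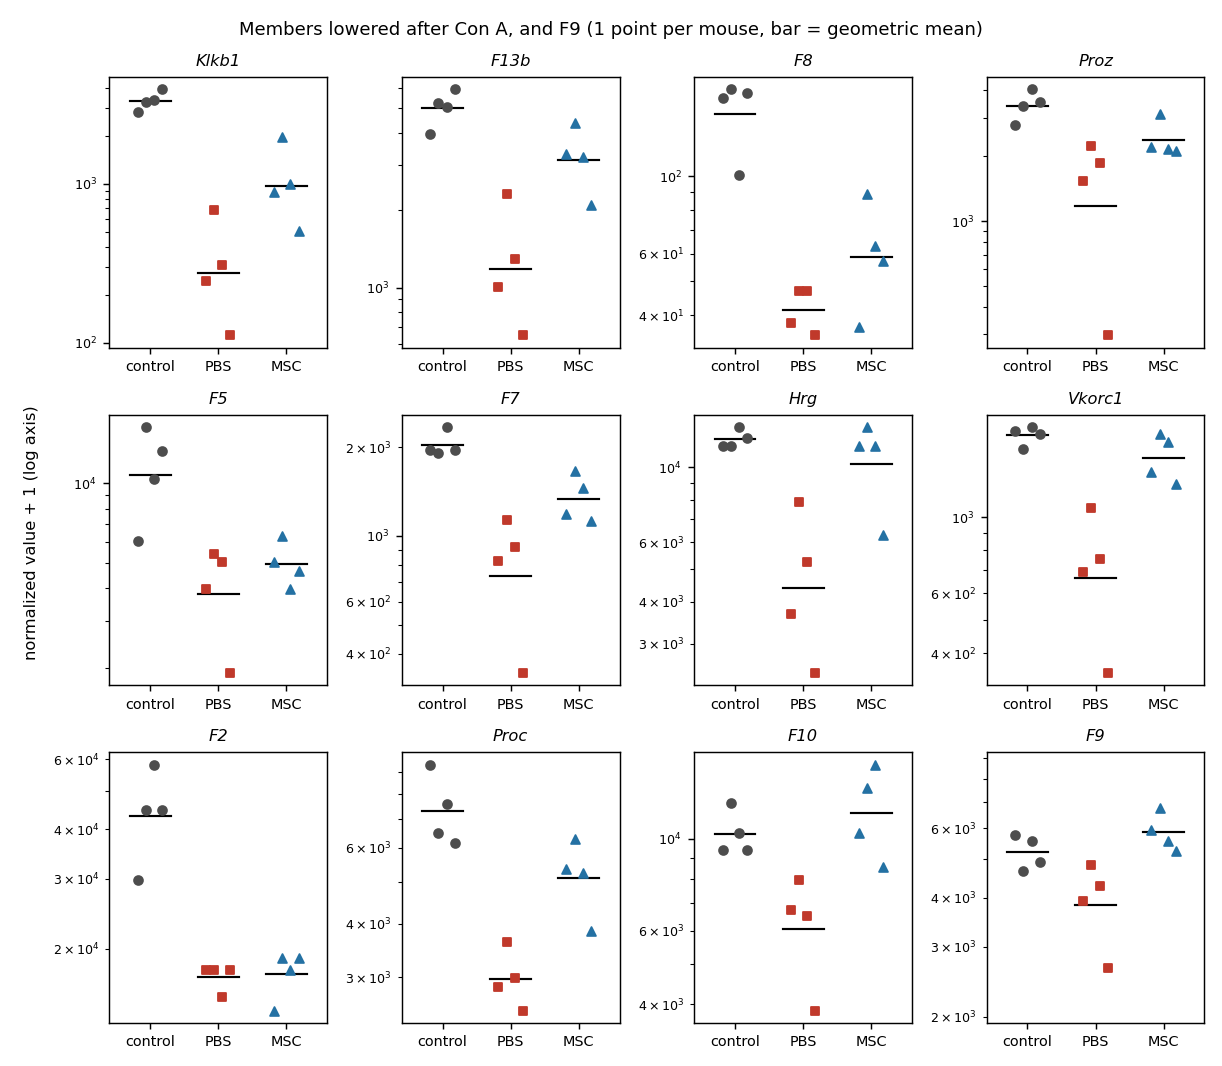
Normalized value plus 1 in each mouse, on a log axis, for 11 clotting genes that fell after Con A and for F9, with control as circles, Con A + PBS (PBS) as squares, Con A + hWJ-MSCs (MSC) as triangles and the geometric mean as a bar. In Hrg, Vkorc1 and F10 some MSC mice lie within the control range, while in Klkb1, F8, F7 and F2 every MSC mouse lies below it.

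The last group serves the other factors. Ggcx and Vkorc1 encode the carboxylase and the reductase of the vitamin K cycle, which prothrombin, factors VII, IX and X and proteins C, S and Z need, and Lman1 and Mcfd2 form the receptor that exports factors V and VIII from the endoplasmic reticulum. Vkorc1 had values of 1782, 1582, 1831 and 1741 in the control mice, 690, 1064, 754 and 350 in the Con A + PBS mice and 1354, 1741, 1650 and 1250 in the Con A + hWJ-MSCs mice. All mice with PBS were below all other mice, and the hWJ-MSCs group overlapped with control. Vkorc1 fell 2.61-fold after Con A (log2 fold change -1.38 ± 0.26 SE, limma adjusted p = 0.000684) and was 2.24-fold higher with hWJ-MSCs than with PBS (limma adjusted p = 0.025, lost in 3 of 12 fits without 1 mouse). A readthrough gene, Gm21974, covers 47.7% of its exon bases on the same strand, so its reads could be split.

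Ggcx averaged 1291 ± 159 (SD, n = 4), 770 ± 258 and 1047 ± 104 in the control, PBS and hWJ-MSCs groups, and its 1.76-fold decrease after Con A (limma adjusted p = 0.00831) fell under the fold threshold without Con A + PBS replicate 4, at -0.54 on the log2 scale. Mcfd2 averaged 2464 ± 198, 4251 ± 585 and 4752 ± 1363 and rose 1.72-fold after Con A (limma adjusted p = 0.00292), while its partner Lman1 averaged 3290 ± 312, 3061 ± 571 and 3822 ± 402 and was not called (limma adjusted p = 0.503). Mcfd2 rose while F5 and F8, whose proteins this receptor exports, fell, and no link between these changes was tested.

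Compared with the control group, 12 members were higher and 5 lower with hWJ-MSCs, 47.2% of the members, where 13.6% of all genes rose, 13.1% fell and 26.7% were called in either direction. The 5 lower members were Klkb1, F8, F5, F2 and Vwf. The 12 higher were F11, Kng2, Fgb, Fgl1, F13a1, Procr, Thbd, Plaur, Anxa2, Cpb2, Thbs1 and Mcfd2. Of the 13 members lowered by Con A, F7, F10, F13b, Proc, Proz, Hrg, Ggcx and Vkorc1 were not called against control with hWJ-MSCs, which does not show that they were at the control level. In a fit of only the 8 mice compared, F7 (log2 fold change -0.60, adjusted p = 0.0076) and F13b were called lower, and Proc was lower by less than the fold threshold with all mice (-0.51, limma adjusted p = 0.0349). The 11 hepatocyte markers in the table summed to 806171 to 1095581 in the control mice, 642226 to 682171 with PBS and 671595 to 699677 with hWJ-MSCs, with 6 of 11 lower after Con A and 1 higher with hWJ-MSCs than with PBS. Their part in the changes of the factors made by hepatocytes was not tested.

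A further 42 genes of the pathway were listed, of which 28 have a row. After Con A 11 of these rose, 7 fell and 10 were not called, where 19.5% of all genes rose and 19.2% fell. With hWJ-MSCs against PBS 0 rose and 3 fell, among them Tgm2 and Itgb3, where 4.2% of all genes rose and 4.38% fell. A2m encodes alpha-2-macroglobulin, a broad protease inhibitor of plasma. A2m had values of 3, 0, 0 and 8 in the control mice, 3542, 4932, 2222 and 2080 in the Con A + PBS mice and 1696, 1818, 8535 and 8908 in the Con A + hWJ-MSCs mice, a log2 fold change of 10.26 ± 0.74 SE after Con A (limma adjusted p = 7.45e-07), whose size depends on the added 1, and 0.38 between the treated groups (limma adjusted p = 0.742). Adamts13, the protease that trims von Willebrand factor, ranged from 101 to 156 in the control mice, 17 to 22 with PBS and 12 to 29 with hWJ-MSCs, and fell by 2.64 on the log2 scale after Con A (limma adjusted p = 2.22e-05). Tgm2, a tissue transglutaminase related to factor XIII, rose by 2.71 on the log2 scale after Con A (limma adjusted p = 5.16e-05) and differed by -1.46 with hWJ-MSCs (limma adjusted p = 0.0272, lost in 3 of 12 fits without 1 mouse). Fgl2, a membrane prothrombinase, rose by 1.01 (limma adjusted p = 0.00617). Serpinc1, which encodes antithrombin, was at 34238 to 44248 in the control mice and 25738 to 29578 in all treated mice, a difference of -0.45 that stayed under the fold threshold (limma adjusted p = 0.0106).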

How the data were processed

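Liver RNA was sequenced from 4 mice in each of 3 groups, which were assigned from the sample labels. What the authors deposited is a whole-number score per gene and mouse, which had been normalized across the mice and is no longer a read count. The submitters' processing notes name Bowtie2 2.2.1, RSEM 1.2.18 and the build mm10, and the step that normalized the values is not given in the sources used here. The study's methods name DESeq2, which needs counts and was not run. A test for counts had been considered in the plan, and the one written there for normalized values was used.

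The scores were analysed as log2(score + 1) with limma 3.58.1 in R 4.3.3, in 1 trended empirical Bayes fit of all 12 mice and 11289 genes with no covariate. A call needed a Benjamini-Hochberg adjusted p under 0.05 over all genes together with a fold change over 1.5, and fold changes of low values are understated by the added 1. The fit was tested on simulated data with 200 of the 11289 genes changed. It recovered 56.5% of genes changed by 0.8 on the log2 scale and 90.5% of those changed by 1.5. Of the calls, 1.74% and 4.23% were false. A member that was not called can therefore still have changed. Each mouse is a separate animal, so p-values measure the spread between mice. They do not where mice are tied on a step of the scale, as the treated mice are for Fgb and Fgl1. Depth is unknown, and no counting error is given. Tables, motif searches and plots used Python (3.11.15) with numpy (2.4.6), pandas (2.3.3) and matplotlib (3.10.9).

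The members, the lists of other genes and cell type markers and the alternatives were chosen with earlier results of these data known. Every member is reported by role. Values of all mice are given for members called between the treated groups, for the 14 called members with the largest change after Con A, and for the fibrinogen chains, F2 and F3. Other pathway genes are given for the 4 largest called changes and for Fgl2 and Serpinc1, and 1 gene that meets this rule is not reported here. All 36 transcripts were found in GENCODE M21, 21 with the same start and end. Promoters of 28 members were taken from RefSeq (GRCm38.p6). The RefSeq start was within 100 bases of the listed start for 25 of them, and was 2275 bases away for F8 and 1106 for Tfpi. As alternatives, the pseudocount was set to 10, genes with a mean under 100 were dropped, values were centred on the median or quantile normalized, the trend was left out, only the 8 mice of a comparison were fitted, the fold change was raised to 2 or dropped, the p was left unadjusted, the replicate number was added as a block, and each mouse was left out in turn.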

Additional observations from a re-analysis of the deposited data

Results flagged for a closer look

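In 13 of the 99 combinations of a clotting gene and a group whose 4 values had any spread, 13.1%, 1 mouse lay far from the other 3 by Dixon's gap test for groups of 4, where chance gives about 5%. A further 9 combinations had no spread. In 7 of these 13 cases the other 3 mice shared a single step of the scale, so that any mouse on another step passed. Those 7 were Kng1 in Con A + PBS replicate 4 (25747, others 29590) and in Con A + hWJ-MSCs replicate 4 (25747, others 44292), F2 in Con A + PBS replicate 3 (15125, others 17674), Fga in control replicate 1 (147432, others 341028), Fgg in control replicate 1 (57938, others 147432), and Plg in control replicate 1 and in Con A + hWJ-MSCs replicate 1 (both 34238, others 44248).

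Of the cases that did not come from tied values, F11 was at 2059 in Con A + PBS replicate 4, below the 3087 to 3164 of its group. F8 was at 100 in control replicate 3, below 166 to 176. F7 was at 2337 in control replicate 3, above 1903 to 1958. Pros1 was at 1344 in control replicate 2, above 1174 to 1187. Con A + hWJ-MSCs replicate 2 stood high in Tfpi, at 115 against 86 to 88, and in Proz, at 3130 against 2107 to 2204.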

How the results depend on the processing

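After Con A, the 11 members that rose and 13 that fell became 11 to 12 and 11 to 14 when single mice were left out, and 7 rose at a mean value of at least 100, a filter that keeps 28 of the 36 members. Between the treated groups the calls were less stable. With single mice left out, the 7 higher and 5 lower members became 0 to 8 and 0 to 6, the higher ones were 3 in a fit of only the 8 mice compared and 4 at a fold change above 2, and the lower ones were 2 at a mean of at least 100. Against control, the 12 higher and 5 lower members with hWJ-MSCs became 10 to 12 and 4 to 6, and the lower ones were 3 at a mean of at least 100. The cause of these differences was not tested, beyond the fewer genes or mice in each fit.

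The replicate number as a block gave 11 and 13 members after Con A, 8 and 4 between the treated groups and 12 and 5 against control. The numbers belong to different animals. Mice with the same number had correlations of their deviations between -0.118 and 0.375 over 12 pairs, 4 of them over 0.1. The own number correlated best in 9 of 24 cases, and the highest correlations, 0.375, 0.244 and 0.168, belonged to same-number pairs. With the block, 11.5% of all genes were called between the treated groups, against 8.58% without it. Whether the numbers pair the mice is not settled by these values.

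Among the genes named, signs turned only for differences that were not called. Without single mice, the log2 fold change after Con A ran from -0.0219 to 0.0558 for F12 and from -0.20 to 0.0196 for Lman1. Between the treated groups it ran from -0.0348 to 0.12 for F2, from -0.10 to 0.0248 for Pros1 and from -0.0394 to 0.26 for Mcfd2, and against control from -0.20 to 0.0885 for Kng1.
For Adamts13, at 0.01 between the treated groups, it was -0.20 after quantile normalization and ran from -0.18 to 0.22 without single mice, and for A2m from -0.0111 to 0.79.
The steps at the top of the scale limit what can be said of Fga, Fgb, Fgg, Fgl1, Plg, Kng1, F2 and Cpb2, and control values under 64 limit the folds of F13a1, Procr, Plaur, Thbd, Thbs1 and A2m.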

Other observations

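Of the remaining marker lists looked up beside the clotting genes, all 5 red blood cell markers fell after Con A, with sums of 4523 to 8415 in the control mice, 1944 to 3326 with PBS and 1625 to 2554 with hWJ-MSCs. The 3 of 9 T cell markers with a row all rose, with sums of 15 to 43, 226 to 358 and 222 to 313 in the same order, and 0 of the 3 were called between the treated groups. Of the 9 stellate cell and fibroblast markers with a row, 0 rose and 3 fell after Con A, and their sums overlapped between all groups, at 5366 to 8568, 6594 to 7693 and 4990 to 10858. Their part in the clotting results was not tested.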
